A study of Mus musculus with 8 samples.

Results

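The transcripts described here belong to 34 genes of fatty acid oxidation, ketone body metabolism and the response to PPARA, chosen by their symbols from the 55487 genes in the deposited count table. All 34 had a row in the table, and 33 of them passed edgeR's expression filter and were tested. The RNA was labelled as the stromal vascular fraction (SVF) of subcutaneous tumors, that is, the cells left after GFP-labelled tumor cells had been removed by sorting. The tumors were grown from MC38, a mouse colorectal cancer cell line, in Bmal1+/+ mice or in Bmal1-/- mice, whose own cells lack the clock transcription factor BMAL1 while the implanted cells keep it. Each genotype has 4 libraries and no other treatment, and the age, sex and hour of collection are not given in the sources used here. Nor is it said whether each library came from a separate mouse, so p-values measure the spread between these libraries, which may be technical.

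Cells take up fatty acids, couple them to coenzyme A and carry them into mitochondria on carnitine, where repeated rounds of beta-oxidation shorten them to acetyl-CoA. Peroxisomes shorten the longest chains by a parallel set of enzymes, and acyl-CoA thioesterases release free acids from coenzyme A again. PPARA is a nuclear receptor that binds fatty acids and switches on most of these genes, above all in hepatocytes during fasting, when the liver also turns acetyl-CoA into ketone bodies.

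Measurements of the libraries themselves did not all go with their labels. Bmal1 (Arntl in the table) was higher in the libraries labelled Bmal1-/-, at 30.1 to 35.0 CPM, than in Bmal1+/+ libraries, at 0.960 to 2.71 CPM. CPM are counts relative to library size, scaled by edgeR's TMM factors. Counts per gene do not show whether a transcript is intact, so they do not decide the genotype. The libraries with the higher Bmal1 counts are therefore called the libraries labelled Bmal1-/- below. Dbp, a clock gene that BMAL1 activates, was lower in them, at 3.73 to 6.97 CPM against 67.0 to 113 CPM, and Npas2, a partner of BMAL1, was higher, at 31.2 to 42.2 CPM against 0.120 to 0.223 CPM. The sex transcript Xist ranged from 844 to 1095 CPM in Bmal1+/+ libraries and lay at or below 0.749 CPM in the others. Sex and genotype label therefore cannot be told apart in any comparison. The hour of collection is not given, so any effect of it cannot be told apart from the label either. The 10 hepatocyte markers summed to 100604 to 112963 CPM in Bmal1+/+ libraries and to 57324 to 68991 CPM in the libraries labelled Bmal1-/-. Alb alone fell by more than this sum, from a mean of 69270 ± 3372 CPM to 16144 ± 2599 CPM (SD, n = 4). Apoa1 and Fgb were instead higher in the libraries labelled Bmal1-/-, with means of 6596 against 2213 CPM and 6638 against 3006 CPM. The ranges of the other hepatocyte markers overlapped between the groups. The 8 fibroblast markers summed to 136 to 218 CPM in Bmal1+/+ libraries and to 103 to 109 CPM in the others. Hnf4a, a transcription factor among the hepatocyte markers, had 681 to 900 CPM under the Bmal1+/+ label and 618 to 842 CPM under the other. Of the fibroblast markers, Fap did not exceed 0.390 CPM in any library. Hepatocyte markers thus far exceeded fibroblast markers in RNA labelled as tumor stroma. Which tissue the RNA came from was not tested, so the results below describe the libraries and not tumor stroma as such. In such bulk samples fewer cells of a type and less RNA per cell cannot be told apart, and the part of these differences in the results below was not tested. Library totals were 14054825 to 18449143 counts, at which 3 counts, the floor used here, equal 0.163 to 0.213 CPM.

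The comparison asked how the levels of the fatty acid oxidation genes in these libraries differ with the Bmal1 label. Every log2 fold change, SE and adjusted p below is from the quasi-likelihood fit of edgeR to 14353 genes, adjusted by Benjamini-Hochberg over all of them, and "called" means an adjusted p below 0.05. By this test 13 of the 33 tested members were lower in the libraries labelled Bmal1-/- and 0 were higher. Over all genes tested, 16.2% were lower and 14.9% higher by the same rule. The members were chosen with earlier results of these data known, so this contrast is a description and not an independent result. The 13 were Ppara, Cd36, Pdk4, Vnn1, Cpt1a, Acadl, Hadh, Ehhadh, Acaa1a, Acot2, Acot3, Acot4 and Bdh1, and their log2 fold changes ran from -7.88 to -0.65. Of them 8 had at most 50% of the Bmal1+/+ level (log2 fold change -1 or below), as had 8.16% of all genes. The median log2 fold change of the 33 members was -0.64, against 0.02 over all genes tested. In 14 members every library labelled Bmal1-/- lay below every Bmal1+/+ library, which was the case for 16.8% of all genes, and in 0 members it lay above (16.7% of all genes). The falls were largest among acyl-CoA thioesterases and in Vnn1, Cd36 and Pdk4, and smaller in the enzymes of mitochondrial beta-oxidation.

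**Figure D1:**
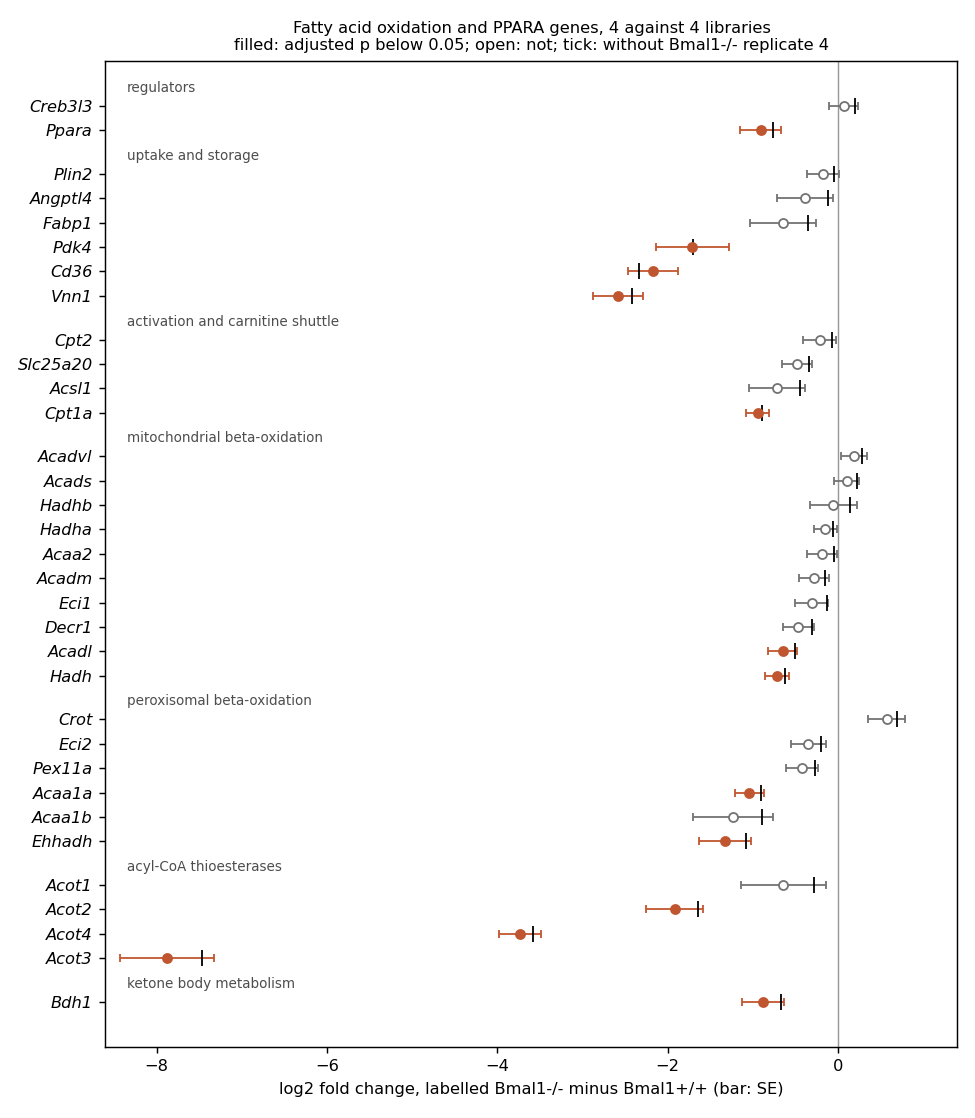
Log2 fold change (libraries labelled Bmal1-/- minus Bmal1+/+, horizontal axis) of the 33 tested genes, grouped by role, with bars for the standard error of the quasi-likelihood fit, filled points for adjusted p below 0.05 and a tick for the value without replicate 4 of the libraries labelled Bmal1-/-. The 13 filled points all lie to the left of 0, from -0.65 for Acadl to -7.88 for Acot3, and Crot lies farthest to the right at 0.57.

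Together the 34 genes took 1.03% to 1.11% of all counts in Bmal1+/+ libraries and 0.417% to 0.869% in the libraries labelled Bmal1-/-. Levels were compared between genes by the authors' FPKM, which divides by gene length. In Bmal1+/+ libraries the mean FPKM was highest for Fabp1 (2314 ± 397, SD, n = 4), followed by Acaa1b (568 ± 62.4) and Acaa2 (464 ± 8.84), and lowest for Fgf21 (0.370 ± 0.234). In the libraries labelled Bmal1-/- Fabp1 again led, at 1509 ± 798 FPKM (SD, n = 4), followed by Acaa2 at 415 ± 97.0 and Acaa1b at 247 ± 141, whose ranges overlapped. Acot4 moved from the 12th to the 29th place in FPKM and Acot3 from the 27th to the 34th.

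**Figure D2:**
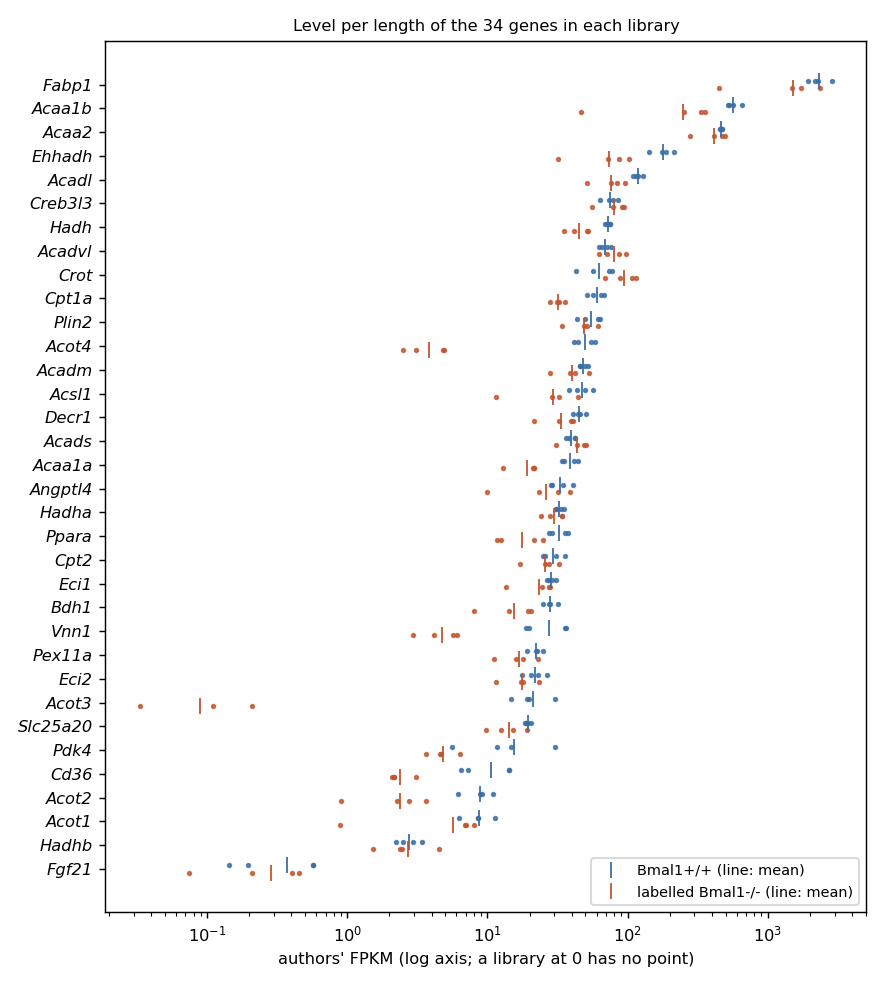
The authors' FPKM (horizontal axis, logarithmic) of the 34 genes in each library, in the order of their Bmal1+/+ mean, with Bmal1+/+ libraries in blue, libraries labelled Bmal1-/- in orange a vertical line at each group mean and no point for a library at 0. Means in Bmal1+/+ libraries span 0.370 (Fgf21) to 2314 FPKM (Fabp1), and the groups lie farthest apart for Acot3 and Acot4.

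The proximal promoters of 4 members are shown from RefSeq (GRCm38.p6) as the 250 bases before a start annotated there. Acot4 and its neighbor Acot3 were chosen for the largest falls and Cd36 as a lower gene of fatty acid uptake. Fabp1 was chosen as the most abundant member per length. These starts can differ from the ends of the gene spans given below. The Cd36 window lies inside its gene span, 17781690 to 17888801, and the Fabp1 window ends past its gene start, 71199827. Capitals mark matches on either strand to the E-box CACGTG, which BMAL1 and CLOCK bind, or to the direct repeat DR1 (2 copies of AGGTCA with 1 base between them and up to 2 mismatches), which PPARA binds with RXR.
Acot4, chr12:84038129-84038378, plus strand, E-box then DR1: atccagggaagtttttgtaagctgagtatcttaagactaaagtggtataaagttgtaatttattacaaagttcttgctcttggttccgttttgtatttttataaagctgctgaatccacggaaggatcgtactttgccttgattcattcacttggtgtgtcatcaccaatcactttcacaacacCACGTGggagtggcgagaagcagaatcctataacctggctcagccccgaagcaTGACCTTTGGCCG
Acot3, chr12:84051894-84052143, plus strand, no match: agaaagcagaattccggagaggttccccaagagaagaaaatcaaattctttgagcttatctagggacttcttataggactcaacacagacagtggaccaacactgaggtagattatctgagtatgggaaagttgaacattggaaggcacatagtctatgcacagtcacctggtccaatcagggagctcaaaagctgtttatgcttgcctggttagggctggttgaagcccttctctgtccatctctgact
Cd36, chr5:17835897-17836146, minus strand, DR1: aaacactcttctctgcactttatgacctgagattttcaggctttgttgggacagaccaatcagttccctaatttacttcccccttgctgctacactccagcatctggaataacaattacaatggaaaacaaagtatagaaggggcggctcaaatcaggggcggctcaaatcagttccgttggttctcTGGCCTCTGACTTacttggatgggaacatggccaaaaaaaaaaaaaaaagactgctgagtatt
Fabp1, chr6:71199629-71199878, plus strand, DR1: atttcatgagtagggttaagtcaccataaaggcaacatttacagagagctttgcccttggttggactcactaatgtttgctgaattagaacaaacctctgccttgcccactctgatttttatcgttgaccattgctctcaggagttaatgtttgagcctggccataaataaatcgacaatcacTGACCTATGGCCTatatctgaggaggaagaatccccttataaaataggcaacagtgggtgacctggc

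Windows from 250 bases before to 50 after the start were found for 30 of the 34 genes. Some genes have more than 1 start, so these made 34 windows. The E-box was in 3 of the 34 windows (of Plin2, Fgf21 and Acot4), and in 7.15% of all 32851 windows. The DR1 was in 6 of the 34 (of Plin2, Cd36, Fabp1, Slc25a20, Creb3l3 and Acot4), and in 3.86% of all windows. The members were listed in part as genes that respond to PPARA, so their DR1 share is not an independent result. The D-box TTATGTAA, bound by clock-driven PAR bZIP factors such as DBP, was in 0 of the 34 windows and in 0.938% of all windows. Of the 6 genes with a DR1, Cd36 and Acot4 were lower and the other 4 were not called. A match is only a run of letters in this window.

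Of the regulators, Ppara itself (ENSMUSG00000022383, GRCm38 chromosome 15, 85734983 to 85802819) was lower in the libraries labelled Bmal1-/-. In Bmal1+/+ libraries it had 164, 223, 227 and 180 normalized CPM in replicates 1 to 4, and in the libraries labelled Bmal1-/- it had 148, 127, 75.3 and 72.4 CPM. The groups did not overlap, though the gap between the lowest Bmal1+/+ and the highest other library was narrow. The log2 fold change was -0.91 ± 0.24 (SE; adjusted p = 0.017). Creb3l3, a transcription factor of the liver that works with PPARA in fasting, had 249 to 321 CPM in Bmal1+/+ libraries and 218 to 359 CPM in the others, and its log2 fold change of 0.06 ± 0.17 (SE) was not called (adjusted p = 0.80). Fgf21, the fasting hormone that PPARA induces in liver, had at most 10 counts in a library and was not tested.

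Among genes of lipid uptake and storage, Cd36 (chromosome 5, 17781690 to 17888801), a fatty acid translocase of the plasma membrane, was lower. It had 118, 62.7, 53.3 and 121 CPM in Bmal1+/+ libraries and 17.4, 17.0, 18.1 and 26.6 CPM in the libraries labelled Bmal1-/-. Every library labelled Bmal1-/- was below the lowest Bmal1+/+ library, and the log2 fold change was -2.17 ± 0.29 (SE; adjusted p = 5.5e-04). Cd36 is also expressed by macrophages and endothelial cells. The summed CPM of 8 macrophage markers lay between 411 and 517 in Bmal1+/+ libraries and between 184 and 344 in the libraries labelled Bmal1-/-, and that of 7 endothelial markers between 242 and 284 and between 170 and 230. Clec4f was the highest macrophage marker and no marker of either list was at 0 in all libraries. The adipocyte markers Adipoq, Plin1, Lep, Retn and Cfd were each below 1 CPM in every library, and their list summed to 18.9 to 25.6 CPM and 17.2 to 24.8 CPM, mostly from Lipe and Pparg. The part of macrophages and endothelial cells in the fall of Cd36 was not tested.

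Vnn1 (chromosome 10, 23894688 to 23905343), a pantetheinase that recycles the precursor of coenzyme A and a known PPARA target, had 106, 58.8, 59.1 and 112 CPM in Bmal1+/+ libraries and 12.1, 16.7, 18.4 and 9.02 CPM in the libraries labelled Bmal1-/-. The groups were far apart, with a log2 fold change of -2.58 ± 0.29 (SE; adjusted p = 2.0e-04). Pdk4 (chromosome 6, 5483351 to 5496309), a kinase that shuts down pyruvate dehydrogenase when fat is burned, had 119.6, 47.9, 22.1 and 59.9 CPM in Bmal1+/+ libraries and 24.9, 14.1, 18.6 and 18.6 CPM in the others. Its spread among Bmal1+/+ libraries was wide, and replicate 3 of that group lay below replicate 1 of the libraries labelled Bmal1-/-. The log2 fold change was -1.71 ± 0.43 (SE; adjusted p = 0.013).

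Fabp1 (chromosome 6, 71199827 to 71205023), the fatty acid carrier of the hepatocyte cytosol, had 1258, 1239, 1573 and 1096 CPM in Bmal1+/+ libraries and 804, 1274, 957 and 253 CPM in the libraries labelled Bmal1-/-. The groups overlapped through replicate 2 of the latter, and the log2 fold change of -0.65 ± 0.39 (SE) was not called (adjusted p = 0.23). Plin2, which coats lipid droplets, had a log2 fold change of -0.18 ± 0.19 (SE; adjusted p = 0.50), and Angptl4, a secreted inhibitor of lipoprotein lipase, one of -0.39 ± 0.33 (SE; adjusted p = 0.40). Both ranges overlapped between the groups.

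**Figure D3:**
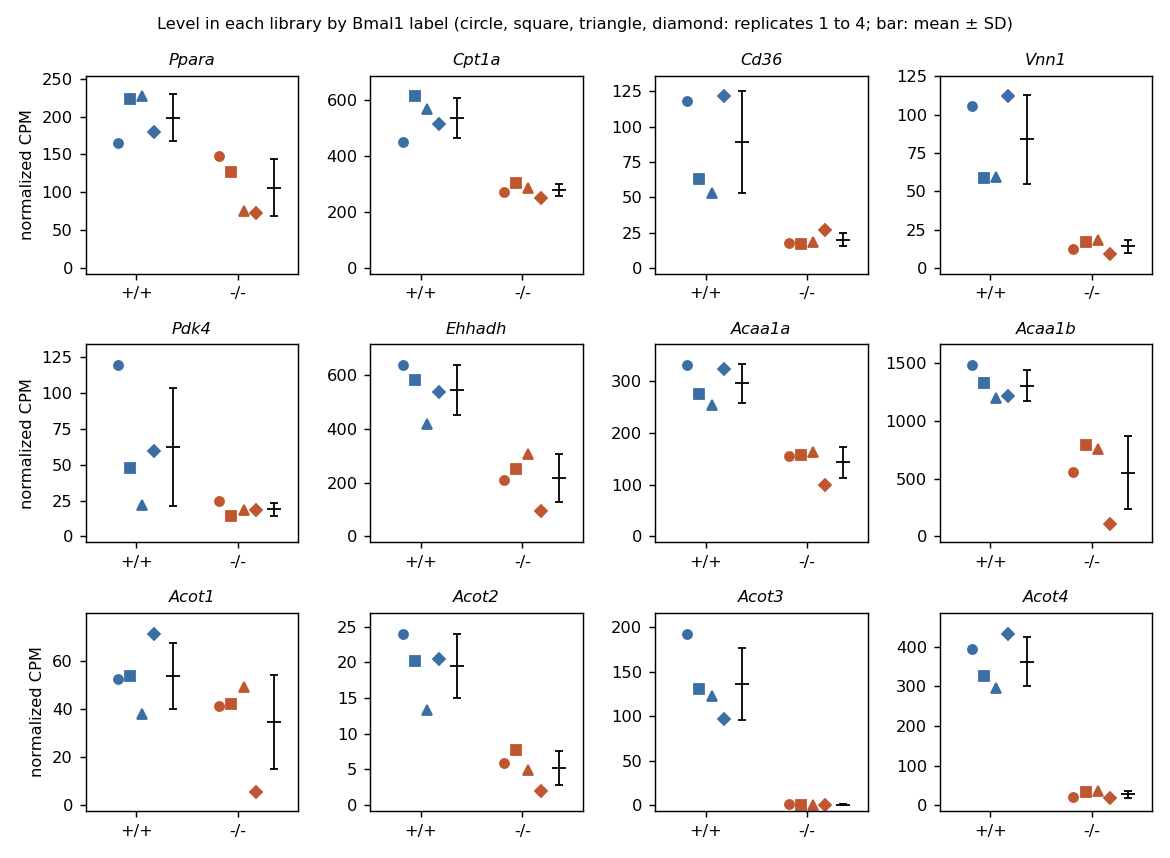
Normalized CPM (vertical axes, linear) of 12 genes in each Bmal1+/+ (+/+, blue) and labelled Bmal1-/- (-/-, orange) library, with symbols for replicates 1 to 4 and a bar for the mean ± SD (n = 4). The groups overlap only for Pdk4 and Acot1, and replicate 4 of the libraries labelled Bmal1-/- is lowest of its group for all genes shown but Cd36 and Pdk4.

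Of 4 genes of fatty acid activation and the carnitine shuttle, 1 was lower, where 16.2% of all genes were lower. Cpt1a (chromosome 19, 3322334 to 3385733) encodes the carnitine palmitoyltransferase of the outer mitochondrial membrane, the gate of long-chain fatty acids into oxidation. It had 448, 612, 567 and 512 CPM in Bmal1+/+ libraries and 271, 304, 287 and 251 CPM in the libraries labelled Bmal1-/-. The mean of the latter was 52.0% of that in Bmal1+/+ libraries, with a log2 fold change of -0.94 ± 0.13 (SE; adjusted p = 7.0e-04), and replicate 4 did not stand apart. Acsl1, the main long-chain acyl-CoA synthetase of liver, had 698, 831, 608 and 555 CPM and 401, 448, 625 and 166 CPM in the same order, with a log2 fold change of -0.71 ± 0.33 (SE; adjusted p = 0.13). Slc25a20, the carnitine-acylcarnitine carrier of the inner membrane, had one of -0.48 ± 0.18 (SE; adjusted p = 0.066), and Cpt2, which returns the acyl group to coenzyme A inside, one of -0.22 ± 0.19 (SE; adjusted p = 0.41).

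The 10 enzymes of mitochondrial beta-oxidation had a median log2 fold change of -0.24, and 2 of them were lower, a share near the 16.2% of all genes. Hadh (chromosome 3, 131233419 to 131272101), the dehydrogenase of short and medium hydroxyacyl-CoA, had 380, 386, 402 and 417 CPM in Bmal1+/+ libraries and 219, 269, 283 and 194 CPM in the libraries labelled Bmal1-/-. Its values were tight within Bmal1+/+ libraries, and its log2 fold change was -0.72 ± 0.14 (SE; adjusted p = 0.0040). Acadl (chromosome 1, 66830839 to 66863277), the long-chain acyl-CoA dehydrogenase, had 239, 230, 233 and 271 CPM and 151, 166, 195 and 106 CPM in the same order, with a log2 fold change of -0.65 ± 0.17 (SE; adjusted p = 0.017). The other 3 acyl-CoA dehydrogenases were not called. Acadm, for medium chains, had a log2 fold change of -0.29 (adjusted p = 0.24), Acads, for short chains, one of 0.10 (adjusted p = 0.64) and Acadvl, for very long chains, one of 0.19 (adjusted p = 0.37). Acadvl shares exonic sequence with Dvl2 on the opposite strand, and whether counting used the strand is not stated. The same limit holds for the lower genes Acaa1a (Myd88) and Bdh1 (Gm15743), and for Acsl1, Hadha, Acaa1b, Eci2 and Crot. Acot3 and Acot4, treated below, also overlap exons on the opposite strand.

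Decr1, the dienoyl-CoA reductase for unsaturated fatty acids, had 170 to 208 CPM in Bmal1+/+ libraries and 88.6 to 164 CPM in the libraries labelled Bmal1-/-. These ranges did not overlap, but its log2 fold change of -0.47 ± 0.18 (SE) was not called (adjusted p = 0.075). Eci1, an isomerase for unsaturated acyl-CoA, the thiolase Acaa2, and Hadha and Hadhb had log2 fold changes between -0.31 and -0.05 with adjusted p between 0.25 and 0.90, and all overlapped. Hadha and Hadhb encode the subunits of the trifunctional protein, yet their FPKM were unlike, at 32.6 ± 1.98 and 2.76 ± 0.511 (SD, n = 4) in Bmal1+/+ libraries. Of the 50-base words in annotated Hadhb transcripts, 19.7% also occur in transcripts of other genes, mainly Gm13910, against 0.341% for Hadha. Why the FPKM of Hadha and Hadhb differ was not tested.

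Peroxisomal genes had a median log2 fold change of -0.73 over 6 members, of which 2 were lower, where 16.2% of all genes were lower. Ehhadh (chromosome 16, 21761287 to 21787807), the bifunctional enzyme that carries out the hydratase and dehydrogenase steps, had 637, 581, 418 and 537 CPM in Bmal1+/+ libraries and 210, 253, 307 and 96.5 CPM in the libraries labelled Bmal1-/-. The groups did not overlap, and the log2 fold change was -1.33 ± 0.31 (SE; adjusted p = 0.0094). The peroxisomal thiolases Acaa1a and Acaa1b both lie on chromosome 9, at 119339676 to 119350299 and 119148023 to 119157093. Acaa1a had 330, 274, 253 and 323 CPM and 154, 156, 163 and 99.0 CPM in the same order, with a log2 fold change of -1.04 ± 0.17 (SE; adjusted p = 0.0017). Acaa1b had 1480, 1322, 1194 and 1211 CPM in Bmal1+/+ libraries and 556, 791, 754 and 108 CPM in the others. Although its groups did not overlap either, its log2 fold change of -1.24 ± 0.47 (SE) was not called (adjusted p = 0.073) in the full comparison. With replicate 4 of that label set aside it was -0.89 (adjusted p = 0.0023). Between these paralogs 30.5% of the 50-base words of Acaa1b transcripts are shared, so counting could split their reads. The FPKM of Acaa1b was 12.4 to 16.0 times that of Acaa1a in Bmal1+/+ libraries, 11.96 to 16.8 times in replicates 1 to 3 labelled Bmal1-/- and 3.63 times in replicate 4.

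Crot, which moves medium-chain products out of the peroxisome on carnitine, was the member with the highest log2 fold change, 0.57 ± 0.22 (SE), and was not called (adjusted p = 0.071). It had 328, 256, 426 and 459 CPM in Bmal1+/+ libraries and 495, 604, 668 and 410 CPM in the libraries labelled Bmal1-/-, of which only replicate 4 reached into the Bmal1+/+ range. Without that library the log2 fold change was 0.69 (adjusted p = 0.029), and 15% of all genes were then called higher. Eci2, an isomerase for unsaturated acyl-CoA, and Pex11a, which makes peroxisomes divide, had log2 fold changes of -0.35 and -0.42 with adjusted p of 0.22 and 0.12.

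The 4 acyl-CoA thioesterases lie next to each other on chromosome 12 within 83987861 to 84060402, in the order Acot2, Acot1, Acot4 and Acot3. Of them 3 were lower, where 16.2% of all genes were lower. Acot3, a peroxisomal enzyme for long-chain acyl-CoA, had 193, 131, 123 and 97.3 CPM in Bmal1+/+ libraries and 1.31, 0.692, 0.213 and 0 CPM in the libraries labelled Bmal1-/-. The latter values stand for 21, 10, 3 and 0 counts, so replicates 3 and 4 were at or under the floor, and the mean was 245-fold lower. The fitted log2 fold change was -7.88 ± 0.55 (SE; adjusted p = 1.3e-05), and -8.78 without replicate 1 of the libraries labelled Bmal1-/-. Acot4, the peroxisomal enzyme for dicarboxylic acyl-CoA such as succinyl-CoA, had 396, 327, 295 and 433 CPM and 21.8, 34.2, 34.9 and 18.3 CPM in the same order. Its mean was 13.3-fold lower, with a log2 fold change of -3.73 ± 0.25 (SE; adjusted p = 8.4e-06). Acot2, the mitochondrial enzyme, had 24.0, 20.2, 13.4 and 20.5 CPM in Bmal1+/+ libraries and 5.87, 7.76, 4.98 and 2.03 CPM in the others, with a log2 fold change of -1.92 ± 0.34 (SE; adjusted p = 0.0024). Acot1, the cytosolic enzyme, had 52.2, 53.5, 37.8 and 71.2 CPM and 41.2, 42.0, 49.0 and 5.49 CPM, and its log2 fold change of -0.64 ± 0.50 (SE) was not called (adjusted p = 0.36).

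Because Acot1 and Acot2 share 24.5% of the 50-base words of Acot2 transcripts, their counts are uncertain as to which gene they belong to. Acot3 and Acot4 both overlap exons of Gm49366 on the same strand and of 4732463B04Rik on the opposite strand. All 4 genes also share 50-base words with Acot5. A sum over the 4 removes any exchange of reads among them, but not with Acot5 or other genes. That sum was 665, 531, 469 and 622 CPM in Bmal1+/+ libraries and 70.2, 84.6, 89.1 and 25.8 CPM in the libraries labelled Bmal1-/-. Acot4 made up most of it in Bmal1+/+ libraries, with a mean of 363 CPM of 572 CPM, so it says little about Acot1 and Acot2. No library labelled Bmal1-/- came near the Bmal1+/+ range.

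Bdh1 (chromosome 16, 31422280 to 31458901), the mitochondrial dehydrogenase that interconverts the ketone bodies acetoacetate and beta-hydroxybutyrate, had 280, 227, 245 and 257 CPM in Bmal1+/+ libraries and 123, 178, 173 and 72.9 CPM in the libraries labelled Bmal1-/-. The groups did not overlap, and the log2 fold change was -0.88 ± 0.25 (SE; adjusted p = 0.022). The call was lost without replicate 1 of Bmal1+/+ (adjusted p = 0.055) and without replicate 1 of the other label (adjusted p = 0.056). Of 7 other genes of ketone body metabolism, Oxct1, which activates acetoacetate for use outside the liver, was lower with a log2 fold change of -1.11 (adjusted p = 0.0064), and the monocarboxylate carriers Slc16a1 and Slc16a6 were higher, with 1.25 (adjusted p = 4.0e-04) and 1.04 (adjusted p = 0.0015). Acat1, the mitochondrial acetoacetyl-CoA thiolase, and Bdh2 are named after their values were seen and were not called, with log2 fold changes of -0.11 (adjusted p = 0.76) and -0.25 (adjusted p = 0.49).

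Beyond the members, 106 further genes of the pathway were listed, of which 102 were tested. By the same test 29 were lower and 14 higher, where 16.2% of all genes were lower and 14.9% higher, and the median log2 fold change was -0.12. The counts of the smaller lists below, each of 7 to 25 tested genes, are to be read against the same shares. These lists, like the members, were written with earlier results of these data known. Of other genes of the carnitine shuttle, its control and carnitine supply, 4 of 7 were lower and 0 higher, among them Slc22a5, the carnitine importer OCTN2, which fell from 67.1 ± 3.39 CPM to 22.5 ± 4.88 CPM (SD, n = 4; log2 fold change -1.58, adjusted p = 7.0e-05). Crat, carnitine acetyltransferase, fell by 1.01 on the log2 scale (adjusted p = 0.021), and Acacb, which makes the malonyl-CoA that blocks CPT1, fell by 3.24 (adjusted p = 0.0037). Other PPARA-responsive genes had 9 of 25 lower and 2 higher. Cyp4a14 and Cyp4a10, omega-hydroxylases of fatty acids, had log2 fold changes of -4.33 (adjusted p = 1.0e-03) and -3.48 (adjusted p = 0.0038), and Aldh3a2, fatty aldehyde dehydrogenase, one of -2.72 (adjusted p = 2.3e-05). Cyp4a14 and Cyp4a10 are paralogs, between which counting could split reads.

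Other peroxisomal genes went both ways, with 6 of 19 lower and 6 higher. Abcd2, a transporter of very long chains into the peroxisome, fell by 5.83 on the log2 scale, from 83.9 ± 14.9 CPM to 1.47 ± 0.666 CPM (SD, n = 4; adjusted p = 1.3e-06). Scp2, a peroxisomal thiolase and sterol carrier, rose from 1051 ± 71.6 CPM to 4016 ± 411 CPM (SD, n = 4), a log2 fold change of 1.93 (adjusted p = 1.7e-05), and Acox2, the oxidase of branched chains and bile acid intermediates, had one of 1.38 (adjusted p = 1.5e-04). Of receptors and partners 4 of 13 were lower and 1 higher. The higher one was Ppard, the PPAR isoform found in most tissues, with a log2 fold change of 2.52 (adjusted p = 6.2e-05), and the coactivators Ppargc1a and Lpin2 had -1.50 (adjusted p = 1.0e-03) and -1.19 (adjusted p = 0.0044). Of other uptake and activation genes 3 of 16 were lower, near the share of all genes, including Acsl3 (-1.30, adjusted p = 1.7e-04) and Acsm5 (-0.78, adjusted p = 0.0052), and 1, Fabp4, was higher (0.71, adjusted p = 0.016). Of other mitochondrial genes 2 of 15 were lower, also near that share, including Acad11 (-0.50, adjusted p = 0.024), and 2 higher, including Acad8 (0.81, adjusted p = 0.0018).

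Replicate 4 of the libraries labelled Bmal1-/-, which is titled KO6 and numbered 4 in its description, stood apart among these genes. It was the lowest of its 4 libraries in 31 of the 33 tested members, where 30% of all genes had their lowest value there, and in 59 of the 102 other pathway genes. Its level had a median of 62.0% of the mean of replicates 1 to 3 over the members, against 98.5% over all genes. The lowest shares were 0% for Acot3, 12.5% for Acot1, 15.5% for Acaa1b and 25.0% for Fabp1, and the exceptions were Pdk4, at 97.0%, and Cd36, at 152%. The same library held 36959 CPM of 7 acute-phase transcripts, against 2221 to 4293 CPM in the other libraries with its label and 1811 to 2862 CPM in Bmal1+/+ libraries. Its macrophage markers summed to 344 CPM, against 184 to 206 CPM in the others with its label. The part of either in these levels was not tested. Without this library 14 members were lower and 1 higher, while 16.9% of all genes were lower, and all 13 members called in the full comparison were among the 14.

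**Figure D4:**
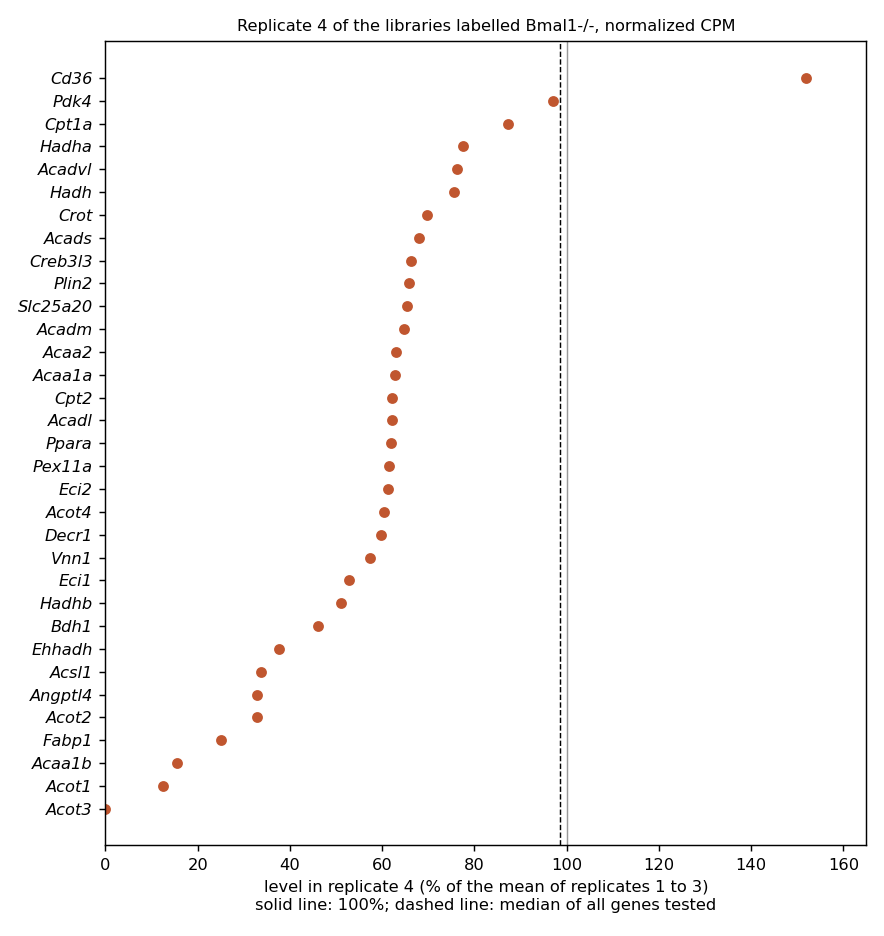
Normalized CPM of the 33 tested genes in replicate 4 of the libraries labelled Bmal1-/-, as a percentage of the mean of replicates 1 to 3 (horizontal axis), with a solid line at 100% and a dashed line at the median of all genes, 98.5%. The 33 points have a median of 62.0%, and Cd36 alone lies above 100%.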

How the data were processed

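RNA from 8 samples, 4 per genotype label, was sequenced, and groups and replicate numbers were taken from the sample descriptions. Per the study's methods, HISAT2 aligned the read pairs to GRCm38 and StringTie gave the fragments of each gene. The authors deposited raw counts and FPKM, and whether counting used the strand is not stated. The submitters' processing notes name TopHat2 2.0.6 and CASAVA 1.8. The FPKM deposited by the authors equal count over library total and 1 fixed length per gene within 1% for 100% of 9369 genes with a mean count of at least 100, so they hold no TMM factor. They were used for levels between genes only.

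Symbols and coordinates are from GENCODE M21, which matched 99.4% of 55487 gene identifiers. Of the 106 further pathway genes, Tmlhe was not matched. The quasi-likelihood test of edgeR 4.0.16 (R 4.3.3) was fitted to the counts of the 14353 genes that filterByExpr kept, with TMM factors, a prior count of 0.125, Benjamini-Hochberg adjustment and a threshold of 0.05. Standard errors are the fold change over the square root of F. Libraries with the same label differed by far more than sampling noise (chi-square per degree of freedom at least 20.0). Across genes, which are not independent replicates, the r of log2 CPM between them was 0.959 to 0.979.

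The members and lists were chosen with earlier results of these data known. All 34 members are named. From each pathway list, up to 3 called genes are named, those with the largest absolute fold change whose mean reached 1 CPM and whose groups did not overlap. The results of some genes of these lists are not reported here. Alternatives were DESeq2 1.42.0, limma-voom (limma 3.58.1), upper-quartile or no scaling, 2 filters on low counts, the likelihood ratio test, a prior count of 2, the replicate number as a block and leaving out each library. Standard errors and SDs reflect the spread between these libraries as well as counting error, and the floor reflects counting error only. Plots used matplotlib 3.10.9 (Python 3.11.15).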

Additional observations from a re-analysis of the deposited data

Results flagged for a closer look

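In 2 of 66 sets of 4 libraries (33 members in 2 groups), 1 library lay farther from the others than Dixon's limit for 4 samples allows, where chance gives about 1 in 20. Cd36 had 26.6 CPM in replicate 4 of the libraries labelled Bmal1-/-, above the 17.0 to 18.1 CPM of the other 3, and Acaa1a had 99.0 CPM in the same library, below the 154 to 163 CPM of the other 3. Without that library the log2 fold changes were -2.34 for Cd36 (adjusted p = 6.0e-04) and -0.90 for Acaa1a (adjusted p = 7.0e-04), and both stayed called.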

How the results depend on the processing

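All 13 lower calls were kept in each of the 9 settings that used all libraries, and 12 were kept in all 8 fits that left out a library, Bdh1 being the exception. Lower members numbered 13 to 15 in the former and 12 to 17 in the latter. Higher members numbered 1 with DESeq2 (Crot, adjusted p = 0.040) and 0 to 1 when a library was left out. Over all genes, leaving out a library gave 1893 to 2502 lower and 1706 to 2212 higher. Calls were gained for Slc25a20 with DESeq2 (adjusted p = 0.043) and limma-voom (0.049), for Decr1 with DESeq2 (0.047) and for Acaa1b with the likelihood ratio test (0.033). Without replicate 3 of the libraries labelled Bmal1-/- calls were also gained for Acsl1, Slc25a20, Acadm and Decr1, and without replicate 1 for Pex11a. Values near 0 changed sign when a library was left out: Creb3l3 to -0.0093 and -0.042 (range -0.042 to 0.20), Acads to -0.0026 (range -0.0026 to 0.22), and Hadhb to 0.058, 0.017 and 0.14 (range -0.40 to 0.14). The cause was not tested. The median of all genes moved by at most 0.03 on the log2 scale under any scaling. The replicate number did not pair the libraries, with correlations of deviations between same-numbered libraries from -0.064 to 0.063 and 2 of 8 libraries correlating best with their own number. With the replicate block, which sets the library titled KO6 beside Bmal1+/+ replicate 4, 13 members, and 2064 lower and 1809 higher genes in all, were called. Depth limits Fgf21, which was not tested, and Acot3 in the libraries labelled Bmal1-/-.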

Other observations

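The Bmal1+/+ libraries differed among themselves in these genes, a pattern seen after the values. In 17 of the 33 tested members replicates 1 and 4 both lay above replicates 2 and 3, as in Cd36 (118 and 121 CPM above 62.7 and 53.3 CPM), Vnn1 (106 and 112 CPM above 58.8 and 59.1 CPM) and Plin2 (328 and 332 CPM above 270 and 228 CPM). Of all genes tested, 18.7% had this order. In 4 members, Ppara, Creb3l3, Angptl4 and Cpt1a, both lay below replicates 2 and 3, as did 19.1% of all genes. Ppara had 164 and 180 CPM in replicates 1 and 4 and 223 and 227 CPM in replicates 2 and 3, so in these libraries the receptor was low where Cd36 and Vnn1 were high.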
